A study of Mus musculus with 9 samples.

Results

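The NR4A family of orphan nuclear receptors comprises Nr4a1 (Nur77), Nr4a2 (Nurr1) and Nr4a3 (Nor1). All 3 genes were examined, out of 35975 genes with a transcript in the files, and they were represented by 14 of the 119414 transcripts quantified. They were selected by gene symbol after their levels in the 2 groups were known, so their differences between the groups are given here as a description, without a test. RNA was sequenced from the mediobasal hypothalamus of wild-type C57Bl/6 male mice at P21 (postnatal day 21). The CTRL group held 4 litters whose dams drank water. The Emul group held 5 litters whose dams drank water with 1% carboxymethylcellulose (CMC) and 1% polysorbate 80 (P80), both dietary emulsifiers, before mating and through gestation and lactation. The pups carried no transgene, and each library stood for 1 litter. The comparison addresses whether the mother's emulsifier intake alters gene expression in the hypothalamus of her male offspring at weaning.

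NR4A receptors bind DNA without a known physiological ligand, because bulky side chains fill their ligand pocket, so their activity follows mainly from how much of them is made. Their genes are rapid primary response genes: calcium and cAMP signals act on CREB, MEF2 and SRF at their promoters and switch them on without new protein synthesis. The receptors bind as monomers to the NBRE element, as dimers to related repeats, and Nr4a1 and Nr4a2 also pair with retinoid X receptors. In the brain, Nr4a1 and Nr4a3 respond to neuronal activity in many cell types, whereas Nr4a2 is also held at a steady level in particular neurons, above all midbrain dopamine neurons.

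The start-site regions are shown because all 3 carry several half-sites of the cAMP response element, the element that CREB binds. They are RefSeq promoter windows on GRCm38.p6, from 250 bases before to 50 bases after each annotated start, printed 5′ to 3′ on the gene's strand up to the first transcribed base, with the half-site TGACG and its reverse complement in capitals. The Nr4a1 stretch is chr15:101266596-101266845 on the plus strand, that of Nr4a2 is chr2:57124004-57124253 on the minus strand, and that of Nr4a3 is chr4:48045055-48045152 on the plus strand. The Nr4a3 stretch is shorter because the GENCODE transcript starts upstream of the RefSeq one.
Nr4a1: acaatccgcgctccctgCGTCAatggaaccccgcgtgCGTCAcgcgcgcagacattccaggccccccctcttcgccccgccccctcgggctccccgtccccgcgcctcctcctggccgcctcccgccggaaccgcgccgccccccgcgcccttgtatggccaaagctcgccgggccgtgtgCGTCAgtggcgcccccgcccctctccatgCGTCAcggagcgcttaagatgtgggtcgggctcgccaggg
Nr4a2: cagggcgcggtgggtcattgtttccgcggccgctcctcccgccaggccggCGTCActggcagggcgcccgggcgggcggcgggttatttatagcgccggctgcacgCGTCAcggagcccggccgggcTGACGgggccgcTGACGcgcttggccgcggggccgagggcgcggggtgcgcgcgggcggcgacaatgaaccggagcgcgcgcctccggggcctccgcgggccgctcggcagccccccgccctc
Nr4a3: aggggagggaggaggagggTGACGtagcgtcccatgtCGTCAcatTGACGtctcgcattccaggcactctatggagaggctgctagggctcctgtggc
Each 300-base window held 4 half-sites, counted on both strands, and the fourth of Nr4a3 lies beyond the printed stretch in transcribed sequence. At least 1 half-site was present in 20.8% of the 32851 promoter windows of this length, and 4 or more in 0.231% of them. The full element TGACGTCA, in which 2 half-sites overlap, was in none of the 3 windows and in 1.79% of all windows. The NBRE letters AAAGGTCA and the SRF-binding CArG box were likewise absent from the 3 windows, against 1.51% and 1.63% of all windows. The TATA letters TATAAA, also counted on both strands, occurred once, in the Nr4a2 window, against 13.6% of all windows. That match lies on the strand opposite to the printed one, at position -164 from the start site. These are matches of letters, and binding was not measured.

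The libraries held 28245360 to 46067534 estimated counts, and CTRL 3 was the smallest. Of 10 mediobasal hypothalamic markers, 9 passed the minimum level (above 1 CPM, counts scaled to library size, in at least 4 libraries), among them Pomc, Agrp, Nr5a1 and Nkx2-1, and Kiss1 did not. Several features of the libraries moved with the groups. Mitochondrially encoded protein genes took 4.51% to 5.52% of counts in CTRL and 5.71% to 6.75% in Emul. Of 7 oligodendrocyte markers, 6 were lower in Emul at an unadjusted p under 0.05 by limma-voom, against 8.99% of all genes, and their summed level was 13118 to 16506 CPM in CTRL and 10238 to 13992 CPM in Emul. Of 10 neuronal markers, 5 were higher and 1 was lower at that threshold, against 6.84% and 8.99% of all genes, with summed levels of 3692 to 3865 CPM and 3862 to 3988 CPM. At that threshold 1 of 9 mediobasal hypothalamic markers (Fezf1, lower), 1 of 7 astrocyte markers (Gfap, lower) and 2 of 8 claustrum and cortical layer 6b markers (Ccn2 lower, Cplx3 higher) were called, and none of 7 microglial, 7 vascular, 5 thalamic and 7 midbrain dopamine markers (edgeR and DESeq2 called 2 and 1 of the thalamic ones), where 15.8% of all genes were called in either direction. None of the markers had an adjusted p under 0.05 by limma-voom or edgeR, while DESeq2 gave this for Gfap, Rbfox3 and Stmn2. The part of these features in the NR4A values was not tested, and in bulk RNA fewer cells of a type and less RNA per cell cannot be told apart.

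Nr4a1 (ENSMUSG00000023034, chromosome 15, 101254269 to 101274795, plus strand, mm10) encodes Nur77, which links cell stimulation to the transcription of metabolic and hormone genes. Its level, with all transcripts summed, was 4.90, 5.13, 5.36 and 4.95 log2 CPM in CTRL 1 to 4. It was 4.85, 4.72, 4.57, 3.98 and 3.78 log2 CPM in Emul 1 to 5. No Emul library reached a CTRL library, but Emul 1 lay only 0.041 log2 units below the lowest CTRL library, while Emul 4 and Emul 5 stood far below the rest. The estimated counts behind these levels were 1138 to 1439 in CTRL and 495 to 1142 in Emul. The CTRL mean was 5.09 ± 0.21 (SD, n = 4), the Emul mean was 4.38 ± 0.48 (SD, n = 5), and the fitted difference was -0.69 ± 0.19 log2 units (SE), 0.619 times the CTRL level. The spread within Emul was therefore wide: Emul 5 held 0.404 times the CTRL mean and Emul 1 held 0.852 times.

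Nr4a3 (ENSMUSG00000028341, chromosome 4, 48045153 to 48086447, plus strand) encodes Nor1, the family member that shares most of Nr4a1's known roles. Its level was 3.49, 4.19, 4.54 and 3.53 log2 CPM in CTRL 1 to 4. In Emul 1 to 5 it was 2.89, 3.15, 2.78, 2.80 and 2.70 log2 CPM. Here the Emul libraries lay close together and 0.34 log2 units or more below every CTRL library, while the CTRL libraries were spread, with CTRL 2 and CTRL 3 high. The estimated counts were 430 to 748 in CTRL and 234 to 366 in Emul. The means were 3.94 ± 0.51 (SD, n = 4) and 2.87 ± 0.17 (SD, n = 5), and the fitted difference was -1.03 ± 0.21 log2 units (SE), 0.490 times the CTRL level.

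Nr4a2 (ENSMUSG00000026826, chromosome 2, 57106830 to 57124003, minus strand) encodes Nurr1, a factor that dopamine neurons need to form and survive. Its level was 4.29, 4.40, 3.06 and 4.56 log2 CPM in CTRL 1 to 4. In Emul 1 to 5 it was 4.28, 4.62, 4.63, 4.01 and 4.64 log2 CPM. The groups overlapped, and 1 library, CTRL 3, stood far below the other 8, with 237 estimated counts against 728 to 1018. The means were 4.08 ± 0.69 (SD, n = 4) and 4.44 ± 0.28 (SD, n = 5), with a fitted difference of 0.28 ± 0.24 log2 units (SE). Without CTRL 3 that difference was 0.01 ± 0.14, and without both CTRL 3 and Emul 5, left out together after the data were seen, it was -0.04 ± 0.14. CTRL 3, the lowest library for Nr4a2, was the highest for Nr4a1 and Nr4a3.

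**Figure D1:**
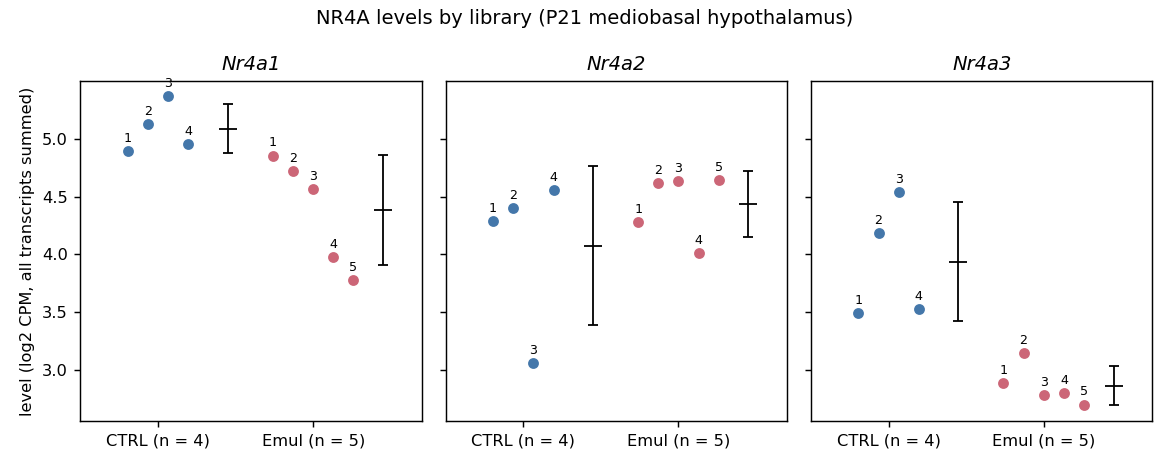
Level of each NR4A gene in log2 CPM (y axis, all transcripts summed) in the 4 CTRL and 5 Emul libraries (x axis), points numbered by replicate, with the group mean and SD in black. The Emul points of Nr4a1 and Nr4a3 sit below all CTRL points, those of Nr4a2 sit among them, and CTRL 3 is the lowest Nr4a2 point at 3.06.

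Of the 3 genes, 2 were thus lower in Emul by more than 1.5-fold, a size that 0.372% of the 15340 genes above the minimum reached in that direction whatever their p. The count was 1 without Emul 4, where Nr4a1 was at -0.58 log2 units, without Emul 5 (-0.55), with the replicate block (-0.54) and without both CTRL 3 and Emul 5 (-0.48), since 1.5-fold is 0.585 log2 units, while Nr4a3 passed in all 27 other settings. The same 2 genes had all Emul libraries below all CTRL libraries, which held for 3.8% of those genes. With the added requirement of an unadjusted p under 0.05, 0.222% of the genes were called lower and 0.469% were called in either direction. From the lowest fitted difference upwards, Nr4a3 stood at place 19 and Nr4a1 at place 39 of the 15340 genes. Since the genes were chosen with this contrast known, nothing is read from these places.

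By kallisto's estimates, the lower Nr4a1 level in Emul lay mainly in 1 of its transcripts. Nr4a1-201, which starts at 101266846, just after the stretch printed above, held 71.5% of the gene's counts over all libraries. Nr4a1-202 starts upstream at 101254269 and held 24.1%, so that the printed stretch falls in an intron of it. The 2 share 2351 bases and differ only at the 5′ end, by 126 bases of Nr4a1-201 and 202 bases of Nr4a1-202, and their counts are kallisto's estimates from the reads that touch those ends. Nr4a1-201 stood at 22.3, 27.0, 34.2 and 24.2 CPM in CTRL 1 to 4. It stood at 21.1, 19.3, 14.9, 9.07 and 3.79 CPM in Emul 1 to 5. Every Emul library was below every CTRL library, from just under them in Emul 1 to 137 estimated counts in Emul 5. The share of all transcripts without overlap was not counted, so nothing is read from this. Nr4a1-202 stood at 5.94, 7.02, 5.41 and 5.75 CPM in CTRL 1 to 4 and at 5.89, 6.12, 7.55, 5.12 and 9.54 CPM in Emul 1 to 5. These groups overlapped, and the highest value was that of Emul 5, the library with the least Nr4a1-201. Over the 9 libraries the 2 estimates had r = -0.56 in CPM, and the part of read sharing in this was not tested. The group means were 26.9 ± 5.21 and 13.6 ± 7.20 CPM for Nr4a1-201 against 6.03 ± 0.697 and 6.84 ± 1.74 CPM for Nr4a1-202 (SD, n = 4 and 5).

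The ratio of Nr4a1-201 to Nr4a1-202 was 3.75, 3.85, 6.31 and 4.21 in CTRL 1 to 4. In Emul 1 to 5 it was 3.59, 3.16, 1.97, 1.77 and 0.397. No Emul library reached the lowest CTRL ratio, but no share over the ratios of other genes was counted. Nr4a1-202 therefore made up 13.2% to 20.1% of the gene's counts in CTRL and 20.4% to 69.8% in Emul. The other transcripts, the short Nr4a1-203 and the intron-retaining Nr4a1-204, held 1.65% and 2.80% of the counts and overlapped between the groups. Nr4a1-203, which shares the start of Nr4a1-201, had means of 0.513 CPM in CTRL and 0.391 CPM in Emul. The authors' deposited gene table follows Nr4a1-201 rather than the gene sum: its 9 values differed from those of Nr4a1-201 alone by a constant with an SD of 0.021 log2 units, and from the sum of all transcripts with an SD of 0.47. In that table the Emul mean of Nr4a1 was -1.19 log2 units from the CTRL mean, against -0.69 for the sum. For Nr4a3 and Nr4a2 the table gave -1.09 and 0.44 log2 units.

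**Figure D2:**
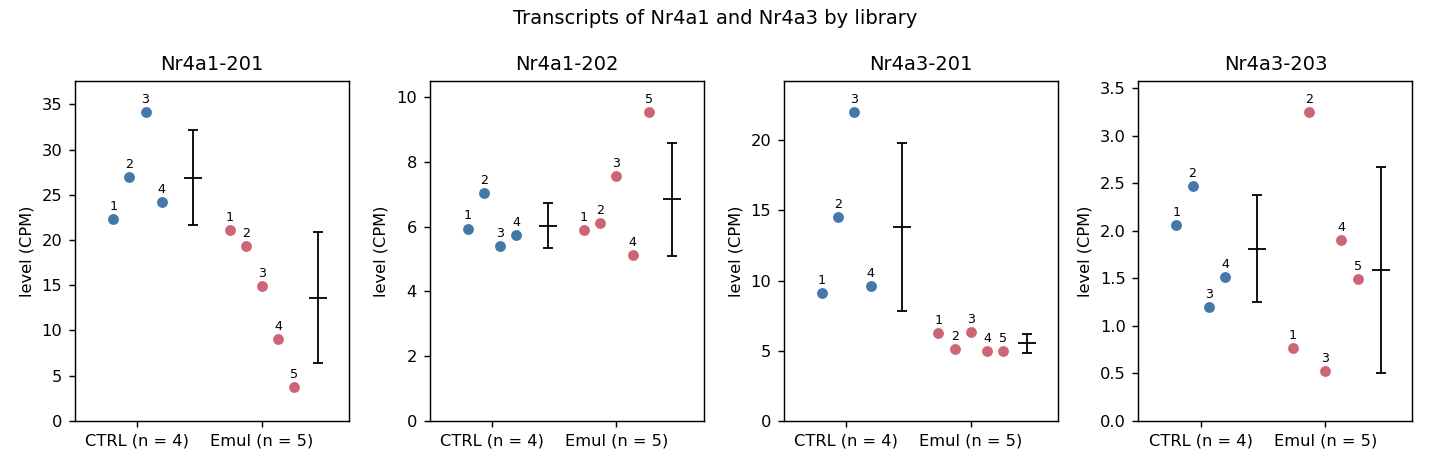
Level in CPM (y axis, from 0) of the 2 main transcripts of Nr4a1 and of Nr4a3 in each CTRL and Emul library (x axis), points numbered by replicate, with the group mean and SD in black. Nr4a1-201 and Nr4a3-201 are lower in all 5 Emul libraries, and the groups overlap for Nr4a1-202 and Nr4a3-203.

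Nr4a3 was also carried mainly by 1 transcript. Nr4a3-201, which starts at 48045153, held 81.4% of its counts and stood at 9.10, 14.5, 22.0 and 9.60 CPM in CTRL 1 to 4. In Emul 1 to 5 it stood at 6.24, 5.12, 6.31, 4.97 and 4.97 CPM, each below every CTRL library. Here too the share over all transcripts was not counted. The means of Nr4a3-201 were 13.8 ± 6.00 CPM (SD, n = 4) and 5.52 ± 0.692 CPM (SD, n = 5). Nr4a3-203, with a start at 48049114 and 15.9% of the counts, was at 1.20 to 2.47 CPM in CTRL and 0.528 to 3.25 CPM in Emul, and the groups overlapped. Nr4a3-202 and Nr4a3-204 were listed at 0 in 5 of 9 libraries each.

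Nr4a2 was split between Nr4a2-201, with a start at 57115038 and 47.0% of the counts, and Nr4a2-203, with a start at 57124003 at the printed window and 37.7%. They share 3247 bases, and their ratio ran from 0.494 to 2.75 in CTRL and from 0.750 to 2.06 in Emul, with no order by group. In CTRL 3 they stood at 4.17 and 4.12 CPM, the lowest of the 9 libraries for Nr4a2-201, while Nr4a2-203 was as low in CTRL 1, at 4.09 CPM. The transcript annotated for nonsense-mediated decay, Nr4a2-206, was listed at 0 in 3 of the 4 CTRL libraries and had 36.4 estimated counts in the fourth, CTRL 1, against 11.6 to 93.9 in Emul. All 6 Nr4a2 transcripts overlapped between the groups.

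Levels can be compared between the genes only per transcript length, as TPM (the share of a transcript among all transcripts of its library). In CTRL the order was Nr4a1 at 34.9 ± 5.66 TPM, Nr4a2 at 16.2 ± 7.74 TPM and Nr4a3 at 6.32 ± 2.24 TPM (SD, n = 4). In Emul it was 21.6 ± 6.02, 18.0 ± 3.58 and 2.67 ± 0.531 TPM (SD, n = 5). Nr4a1 and Nr4a2 were thus apart in CTRL, where their ranges did not meet, and within each other's spread in Emul, while Nr4a3 was the lowest on average in both groups. In CTRL 3 Nr4a2, at 4.92 TPM, lay below Nr4a3 at 8.30 TPM. Very short transcripts weigh heavily in TPM. Nr4a2-204, with 182 bases and 0.65% of the Nr4a2 counts, gave on average 4.62 TPM in CTRL and 4.81 TPM in Emul. It was listed at 0 in CTRL 3. Nr4a1-203, with 344 bases and 1.65% of the Nr4a1 counts, gave 5.42 TPM in CTRL and 3.87 TPM in Emul. The levels, sums and shares given here include both. The 3 genes together summed to 53.0 to 62.2 TPM in CTRL and 34.2 to 49.5 TPM in Emul. Nr4a2 made up 8.73% to 38.5% of this sum in CTRL and 32.1% to 56.2% in Emul, where Emul 5 was the only library in which it held more than Nr4a1.

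Across the 9 libraries Nr4a1 and Nr4a3 had like orders (Pearson r = 0.81, Spearman rho = 0.97), and within CTRL and Emul r was 0.98 and 0.66. This likeness includes the shared difference between the groups, and with each group centred on its mean r was 0.55. Nr4a2 ran apart from both, with r = -0.42 against Nr4a1 and -0.63 against Nr4a3, but without CTRL 3 these were 0.07 and -0.03. The points share libraries and depth, so the coefficients are descriptions.

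The genes most like each member were found by the correlation of group-centred log2 CPM over the 9 libraries, among 14016 genes with a mean above 1 log2 CPM. For Nr4a1 they were Fos (r = 0.98) and Egr1 (r = 0.97), both rapid primary response transcription factors, then Lpar2, Ovca2 and Zfp36l1 (r = 0.96 each). Fos stood at 4.83, 5.13, 5.25 and 4.88 log2 CPM in CTRL 1 to 4 and at 4.76, 4.83, 4.45, 3.91 and 3.63 log2 CPM in Emul 1 to 5. Like Nr4a1, Fos was lowest in Emul 4 and Emul 5 and highest in CTRL 3, and without Emul 5 the centred r was still 0.97. Of the Nr4a1 transcripts, Nr4a1-201 had r = 0.97 with Fos on the log2 scale over the 9 libraries, and Nr4a1-202 had r = -0.46. Both values were taken without centring, so they include the difference between the groups. Fos was picked for its likeness to the gene sum, of which Nr4a1-201 held 71.5% of the counts, so nothing is read from them.

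For Nr4a3 the genes by that rule were Gm8956 (r = 0.95), Srp54b (r = 0.95), Ptcd1 (r = 0.94), Qpctl (r = 0.93) and Mettl13 (r = 0.90). With the group difference left in, Srp54b and Mettl13 had r of only 0.11 and 0.03 with Nr4a3. Fosl2, which encodes the AP-1 subunit Fra-2 and was picked from the list of rapid response genes after its values were seen, had r = 0.96 with Nr4a3 over the 9 libraries and 0.88 with the groups centred. Fosl2 stood at 4.58, 4.77, 5.24 and 4.42 log2 CPM in CTRL 1 to 4 and at 4.05, 4.25, 4.13, 4.01 and 4.18 log2 CPM in Emul 1 to 5. As for Nr4a3, the Emul libraries were tightly grouped below all CTRL libraries, and CTRL 2 and CTRL 3 were the highest.

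For Nr4a2 the genes were Lmx1a (r = 0.99), Csf2rb2 (r = 0.98), Cpne9 (r = 0.97), Slc35d3 (r = 0.97) and Pthlh (r = 0.97). Lmx1a, a transcription factor of the subthalamic and posterior hypothalamic region and of midbrain dopamine progenitors, stood at 2.80, 2.80, 1.21 and 3.12 log2 CPM in CTRL 1 to 4. It stood at 2.78, 3.36, 3.34, 2.75 and 3.54 log2 CPM in Emul 1 to 5. It was lowest in CTRL 3, as Nr4a2 was, and without CTRL 3 the centred r was still 0.96. Other factors of that region were looked at after this was seen. Lmx1b, Foxa1, Foxa2 and Barhl1 were each lowest in CTRL 3 too, and with Lmx1a these 5 factors summed to 8.27 CPM there against 20.1 to 32.0 CPM in the other 8 libraries. Their r with Nr4a2 over all libraries was 0.98 for Lmx1a, 0.97 for Foxa2, 0.95 for Lmx1b, 0.90 for Foxa1 and 0.83 for Barhl1. Without CTRL 3 it was 0.88, 0.86, 0.67, 0.53 and 0.37. Foxa2 was near the floor, at -3.54 log2 CPM in CTRL 3 and at most 0.62 log2 CPM in any library. It lay below the mean of 1 log2 CPM required for the likeness search.

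Midbrain dopamine neuron markers also varied. Of 8 on the list, 7 passed the minimum and Pitx3 did not, and their summed level was 74.3 to 262 CPM in CTRL and 106 to 186 CPM in Emul, lowest in CTRL 3. Foxa1 and Foxa2, given above, are among these 7, so the markers are not a separate set from the factors above. Slc6a3, the dopamine transporter, stood at 6.21, 4.06, 2.04 and 6.46 log2 CPM in CTRL 1 to 4 and between 3.24 and 5.56 log2 CPM in Emul. It was lowest in CTRL 3 as well, but without CTRL 3 its r with Nr4a2 was -0.07. The part of tissue sampling in the Nr4a2 values was not tested.

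**Figure D3:**
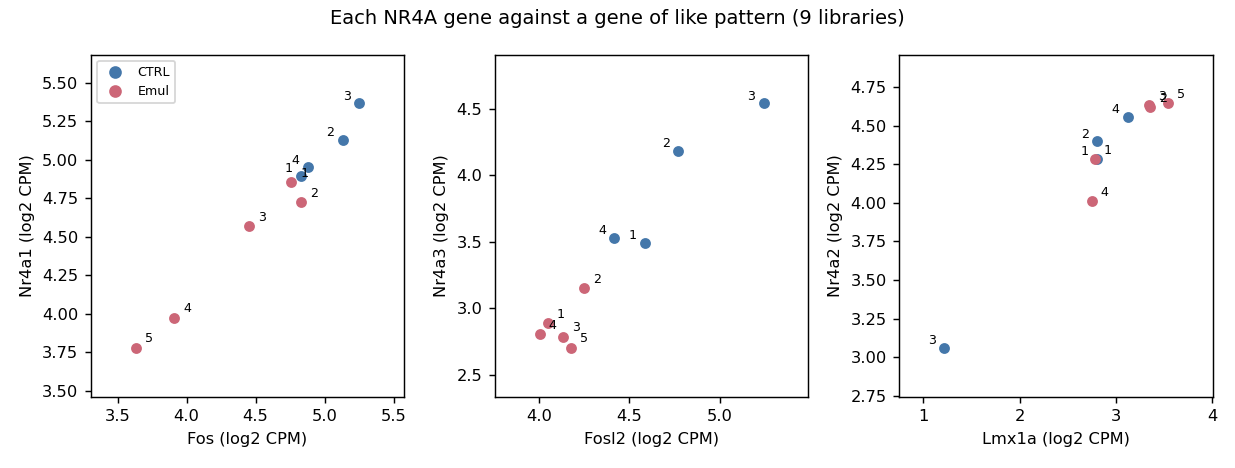
Level of Nr4a1 against Fos, of Nr4a3 against Fosl2 and of Nr4a2 against Lmx1a (all in log2 CPM), 1 point for each of the 9 libraries, numbered by replicate and coloured by group. The partner genes were chosen for their likeness. Emul 4 and Emul 5 are the lowest points in the first panel, the 5 Emul libraries are bunched at the bottom left in the second, and CTRL 3 stands alone at the bottom left in the third.

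Of the 46 other receptors of the nuclear receptor superfamily, 35 passed the minimum, and their fitted differences ran from -0.26 to 0.26 log2 units. Nr4a1 (-0.69) and Nr4a3 (-1.03) lay below this range, and Nr4a2 (0.28) lay just above it. Without CTRL 3, where Nr4a2 was at 0.01, 32 of the 35 were farther from 0 than Nr4a2. That number was 7 with protein-coding transcripts, 5 with quality weights and 5 with the replicate block. The range of the 35 also moved, and its low end was -0.76 in the authors' table and -0.47 with protein-coding transcripts. The NR4A genes were chosen with this contrast known, so these positions are a description. Of these 35, 5 had an unadjusted p under 0.05, or 14.3% against 15.8% of all genes, and none had an adjusted p under 0.05 by limma-voom, edgeR or DESeq2, while by limma-voom 0.117% of all genes had. Rarg, a retinoic acid receptor, was at -0.26 ± 0.07 log2 units (SE, limma-voom adjusted p = 0.151). Nr2e1, a neural stem cell factor, was at -0.25 ± 0.09 (limma-voom adjusted p = 0.213), and Nr2f2 at -0.14 ± 0.06 (limma-voom adjusted p = 0.303). Rora, a regulator of clock genes, was at 0.26 ± 0.09 (limma-voom adjusted p = 0.202), and Nr2c2 at 0.07 ± 0.03 (limma-voom adjusted p = 0.283). Rarg was nearer to 0 with length-scaled counts (-0.05) and in the authors' table (-0.11), as was Nr2e1 (-0.10 and -0.09), with unadjusted p-values above 0.05, and Nr2f2 was at -0.08 without CTRL 3. Nr2f2 and Nr2c2 each kept an unadjusted p under 0.05 in only 12 of 27 other settings. The count of 5 was 3 without CTRL 2, CTRL 4 or Emul 3 and with the authors' table, and 2 with length-scaled counts.

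The SD within groups was 0.50 log2 units for Nr4a2, 0.38 for Nr4a1 and 0.36 for Nr4a3. It comes from the same levels that were known when the genes were chosen, so its places are a description. Among the 38 receptors above the minimum these were places 2 to 4 from the highest, behind Esrra at 0.60, and the median of the other 35 was 0.11. Without CTRL 3, left out after the data were seen, they were at places 2 to 4 again, but the SD of Nr4a2 fell to 0.24 and that of Nr4a3 to 0.27, close to Esr2 at 0.23, while Nr4a1 was at 0.39. With all libraries 1.38%, 2.65% and 3.27% of the 15340 genes had a larger SD than Nr4a2, Nr4a1 and Nr4a3, and without CTRL 3 these shares were 9.16%, 2.18% and 7.41%. By level per length, over both groups, Nr4a1 was at place 11 of the 49 receptors, Nr4a2 at 15 and Nr4a3 at 29, and Thra, the thyroid hormone receptor alpha gene, was first with 430 TPM.

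**Figure D4:**
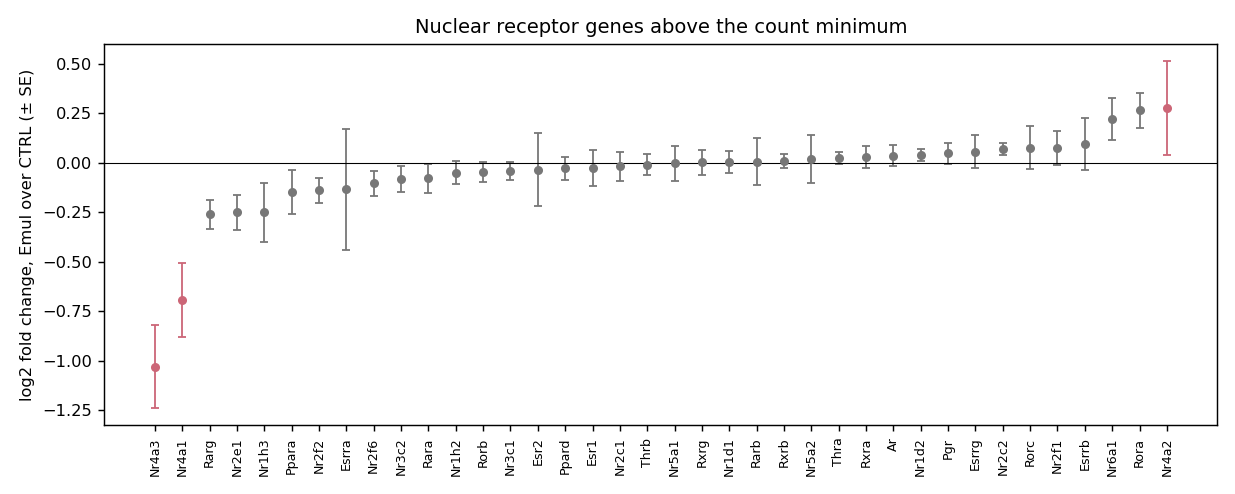
Fitted log2 fold change, Emul over CTRL, with its SE (y axis), of the 38 nuclear receptor genes above the minimum (x axis), in rising order, with the NR4A genes in red. Nr4a3 (-1.03) and Nr4a1 (-0.69) are at the low end, Nr4a2 (0.28) is at the high end with a wide SE, and the others lie between -0.26 and 0.26.

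None of 12 partners and coregulators of the NR4A receptors had an unadjusted p under 0.05 by limma-voom, by which 15.8% of all genes were called, and none was called by edgeR or DESeq2 either. Their median difference was -0.0039 log2 units against 0.0015 for all genes, with a range of -0.12 to 0.04. The retinoid X receptors, the dimer partners, were at 0.03 ± 0.06 (SE, Rxra), 0.01 ± 0.04 (Rxrb) and 0.0027 ± 0.063 (Rxrg) log2 units. Their signs turned under other scalings or with 1 library left out, so no direction is given.

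Among regulators that act on NR4A promoters, 37 of 38 passed the minimum (Mef2b did not). Of these, 6 were higher and 1 was lower in Emul at an unadjusted p under 0.05, or 18.9% against 15.8% of all genes, none with an adjusted p under 0.05 by limma-voom or edgeR and 1, Ppp3cb, by DESeq2, and the median difference was 0.015 log2 units against 0.0015 for all genes. Of the genes of calcineurin, a phosphatase that passes on calcium signals, the list held 3. Ppp3cb was at 0.13 ± 0.04 (SE, limma-voom adjusted p = 0.157), Ppp3ca at 0.08 ± 0.03 (limma-voom adjusted p = 0.214) and Ppp3r1 at 0.08 ± 0.03 (limma-voom adjusted p = 0.266). Ppp3ca no longer had an unadjusted p under 0.05 with the replicate block, with library size alone or without both CTRL 3 and Emul 5. The neuronal markers Rbfox3 (0.12 ± 0.03), Stmn2 (0.17 ± 0.04) and Snap25 (0.11 ± 0.05 log2 units, SE) differed by a like amount. Of the 10 neuronal markers, 3 were lower instead: Slc32a1 (-0.27 ± 0.12), Gad1 (-0.24 ± 0.12) and Gad2 (-0.23 ± 0.13). The part of neuronal markers in the calcineurin values was not tested. Mef2a, a calcium-responsive transcription factor, was at 0.25 ± 0.09 (limma-voom adjusted p = 0.226) and at 0.16 without Emul 3, and the CREB coactivator Ep300 at -0.09 ± 0.03 (limma-voom adjusted p = 0.239). Creb1 itself was at -0.05 ± 0.05 log2 units (SE), and its relatives Crem and Atf1 were at -0.07 ± 0.06 and 0.01 ± 0.07. Of the other CREB coactivators, Crtc1 was at -0.0029 ± 0.036, Crtc2 at -0.06 ± 0.05, Crtc3 at 0.01 ± 0.04 and Crebbp at 0.07 ± 0.04 log2 units. None of these 7 had an unadjusted p under 0.05 by limma-voom. Mef2c was at 0.13 ± 0.06, Mef2d at -0.01 ± 0.03 and Srf at -0.12 ± 0.06 log2 units. The signs of Creb1, Crtc1, Mef2c and Mef2d turned under some settings. The count of 7 was 2 without CTRL 3, 4 without Emul 5, 3 without both, and 11 without Emul 4.

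The other rapid primary response genes are switched on by the same signals as the NR4A genes. Of 41 that passed the minimum out of 45, 11 were lower and 2 were higher at an unadjusted p under 0.05, against 8.99% and 6.84% of all genes, and their median difference was -0.13 log2 units against 0.0015. The list was chosen with earlier results of these data known, so these counts and this median are a description. Jun, an AP-1 subunit, fell by 0.30 ± 0.04 log2 units (SE, limma-voom adjusted p = 0.0246), the only gene of the list with an adjusted p under 0.05 by limma-voom or edgeR, while DESeq2 added Sik1, Fosl2, Dusp4 and Btg1. Its direction held under all 27 other settings, with an adjusted p between 2.3e-07 (DESeq2) and 0.174 (limma-voom with a replicate block), and under 0.05 in 17 of them. It was 0.104 without CTRL 2, 0.0765 without CTRL 3, 0.0823 without CTRL 4 and 0.0581 without Emul 3 by limma-voom. Jun stood at 5.52, 5.62, 5.59 and 5.59 log2 CPM in CTRL 1 to 4 and at 5.32, 5.32, 5.24, 5.32 and 5.19 log2 CPM in Emul 1 to 5, with no overlap. Sik1, a kinase that restrains CREB coactivators, was at -0.48 ± 0.09 (limma-voom adjusted p = 0.0813), and the antiproliferative gene Btg1 at -0.21 ± 0.04 (limma-voom adjusted p = 0.101). Fosl2 was at -0.60 ± 0.13 (limma-voom adjusted p = 0.102) and Fos at -0.69 ± 0.20 (limma-voom adjusted p = 0.169), both past 1.5-fold with an unadjusted p under 0.05. Fos fell short of 1.5-fold in 4 of 27 other settings, among them without Emul 4 (-0.58) and without Emul 5 (-0.54), and Fosl2 in 7, among them without CTRL 3 (-0.47), without Emul 1 (-0.58) and without Emul 4 (-0.57). The 2 higher genes were Bdnf at 0.31 ± 0.11 (limma-voom adjusted p = 0.212) and Trib1 at 0.14 ± 0.06 (limma-voom adjusted p = 0.251), and Npas4, the most activity-specific of these factors, was at 0.05 ± 0.13. The count of 13 was 8 without CTRL 3, the library highest in Nr4a1, Nr4a3, Fos and Fosl2. The mitochondrial share and the oligodendrocyte markers given above moved with the groups here too, and their part was not tested.

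Of 13 genes reported as NR4A targets, 2 were lower in Emul at an unadjusted p under 0.05, or 15.4% against 15.8% of all genes, and none had an adjusted p under 0.05 by limma-voom, edgeR or DESeq2. Vip, a neuropeptide of the suprachiasmatic nucleus, was at -1.50 ± 0.57 log2 units (SE, limma-voom adjusted p = 0.237). It ranged from -2.02 (without Emul 4) to -0.65 (with the replicate block) and kept an unadjusted p under 0.05 in 17 of 26 other settings, not without CTRL 1, Emul 2, Emul 3 or Emul 5, nor with the block or quality weights, without both CTRL 3 and Emul 5, or by edgeR (-0.92) or DESeq2 (-0.95). The summed suprachiasmatic markers, Vip included, were 62.6 to 75.9 CPM in CTRL and 54.8 to 69.7 CPM in Emul, with Nms and Prok2 under the minimum, and their part was not tested. Pdk4, a kinase that inhibits pyruvate dehydrogenase, was at -0.26 ± 0.08 (limma-voom adjusted p = 0.168). Pomc, the melanocortin precursor, was at -0.23 ± 0.15, and the dopamine genes Th, Slc6a3, Slc18a2, Ddc and Ret, which Nr4a2 controls in midbrain, lay between -0.33 and 0.06 log2 units. Some of their SEs were wide, with Slc6a3 at -0.33 ± 0.76, Th at -0.26 ± 0.24 and Ret at 0.06 ± 0.18. None of these genes had an unadjusted p under 0.05 by limma-voom. The count of 2 was 4 without CTRL 3 and 1 without Emul 2, Emul 3 or Emul 5.

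Values of the nearest genes above the minimum on each side of the NR4A loci were also read. Grasp and Atg101 flank Nr4a1 at 21513 and 9477 bases and were at 0.02 ± 0.08 and 0.05 ± 0.09 log2 units (SE). The nearest to Nr4a3 were Sec61b and Stx17, 561911 and 38468 bases away, at 0.05 ± 0.08 and 0.06 ± 0.04. The nearest to Nr4a2 were Kcnj3 and Gpd2, 1508685 and 113632 bases away, at 0.10 ± 0.05 and -0.02 ± 0.04. None of the 6 had an unadjusted p under 0.05 by limma-voom, edgeR or DESeq2. With limma-voom calling 15.8% of all genes, nothing is read from so small a count. No annotated gene overlapped an NR4A gene on either strand.

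Over 27 other settings Nr4a3 ranged from -1.17 to -0.83 log2 units and Nr4a1 from -1.19 to -0.48, always lower in Emul. The values of Nr4a1 near -1.2 came from the authors' table and from the 4 settings that left Nr4a1-202 out. The lowest and highest values of Nr4a3 under left-out libraries came without CTRL 4 (-1.17) and without CTRL 3 (-0.87). Nr4a2 ranged from -0.04 to 0.44, and its values nearest to 0 came from the 2 settings without CTRL 3.

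**Figure D5:**
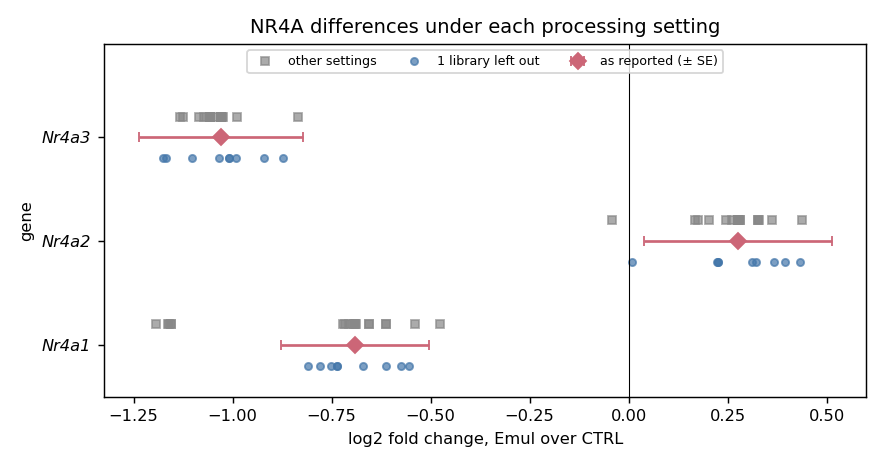
Fitted log2 fold change, Emul over CTRL (x axis), of each NR4A gene (y axis) as reported with its SE (red), with 1 library left out (blue circles) and under the other settings (grey squares). Nr4a3 stays between -1.17 and -0.83, Nr4a1 has a separate cluster near -1.2 from the authors' table and the settings that left Nr4a1-202 out, and Nr4a2 reaches 0.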

How the data were processed

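Total RNA of 4 CTRL and 5 Emul litters was sequenced as strand-specific mRNA libraries. The authors quantified transcripts with kallisto 0.46.1, which shares reads among overlapping transcripts, and deposited estimated counts and TPM per transcript and a gene table of log2 CPM. Here estimated counts were summed per gene with GENCODE M21 (mm10), which matched 97.8% of transcripts. The 15340 genes above 1 CPM in at least 4 libraries were scaled by TMM and fitted with limma-voom (R 4.3.3, limma 3.58.1, edgeR 4.0.16), with Benjamini-Hochberg adjustment over all of them. Levels are log2 CPM with a prior count of 2. The study's thresholds were a p of 0.05, called an FDR in 1 place and not in its methods, and a fold of 1.5, and unadjusted p-values were used with that fold here. edgeR's quasi-likelihood test, DESeq2 1.42.0 (on rounded counts), other scalings, filters, gene summaries, a replicate block and left-out libraries were alternatives, and the fit was tested on simulated data. Libraries held 28245360 to 46067534 estimated counts and each is 1 litter, so p-values measure the spread between litters.

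The members and all gene lists were chosen with earlier results of these data known. Named were the members, the 5 genes most like each, their nearest genes, up to 5 genes per list with the smallest p under 0.05, the RXR genes, Creb1, Crem, Crtc1, Mef2c, Mef2d and Srf. Other names were picked after their values were seen. Promoter windows matched by symbol for 3 of 3 members.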

Additional observations from a re-analysis of the deposited data

Results flagged for a closer look

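Of 84 group values of the NR4A genes, their transcripts and the named genes, 5 held a library that stood apart from the rest of its group by Dixon's criterion, where chance gives about 4.2 (1 in 20). In the authors' table, Nr4a2 was at 2.63 log2 CPM in CTRL 3 against 4.51 to 4.86 in the other CTRL libraries. Nr4a1-202 made up 69.8% of the Nr4a1 counts in Emul 5 against 20.4% to 32.7% in the other Emul libraries. Crem, whose short form represses cAMP response elements, was at 3.84 log2 CPM in Emul 5 against 3.64 to 3.67. Mef2d was at 7.45 log2 CPM in CTRL 3 against 7.51 to 7.52, and Camk2d at 7.37 log2 CPM in Emul 4 against 7.51 to 7.55. The causes were not tested.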

How the results depend on the processing

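Nr4a1 and Nr4a3 were lower in Emul under all 27 alternatives. Nr4a1 was at -1.19 log2 units in the authors' table, -1.16 with transcripts up to the highest identifier number found in that table for single-transcript genes, -1.16 with those as length-scaled counts, and -1.16 and -1.16 with the tighter number limit, estimated counts and length-scaled, chosen after seeing the data. By construction the last 4 leave Nr4a1-202 out. With 1 library left out, Nr4a1 ranged from -0.81 (without Emul 1) to -0.55 (without Emul 5), Nr4a3 from -1.17 (without CTRL 4) to -0.87 (without CTRL 3) and Nr4a2 from 0.01 (without CTRL 3) to 0.43 (without CTRL 4). The cause of these shifts was not tested. Same-numbered libraries did not deviate together (r = -0.16, -0.01, 0.02 and -0.06), no CTRL library was most like its own number, and the replicate block, to which the unmatched Emul 5 adds nothing, gave -0.54 for Nr4a1, 0.17 for Nr4a2 and -1.06 for Nr4a3. It moved the upstream regulators from 7 to 3 calls, took Jun's call, and gave 1 gene at an adjusted p under 0.05 against 18 without it, with 0 shared.

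Genes past 1.5-fold with an unadjusted p under 0.05 numbered 72, against 688 with no filter, 37 with the filter in all 9 libraries, 112 with the tighter number limit and length-scaled counts, and 48 (without Emul 3) to 95 (without Emul 4) with 1 library left out. Genes at an adjusted p under 0.05 numbered 18 in limma-voom, 33 in edgeR, 341 in DESeq2, 5 in the authors' table and 0 to 24 with 1 library left out. Other nuclear receptors with an unadjusted p under 0.05 numbered 5, against 2 with length-scaled counts of all transcripts or under either number limit, 3 in the authors' table, and 3 to 5 with 1 library left out. Rapid primary response genes numbered 13, against 8 without both CTRL 3 and Emul 5, and 8 to 16 with 1 library left out. Upstream regulators numbered 7, against 3 without both libraries and 2 to 11 with 1 left out. Reported targets numbered 2, against 1 in edgeR, DESeq2, with quality weights and with the filter in all libraries, and 1 to 4 with 1 left out. The cause was not tested.

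Of 701 values of 26 named genes under the alternatives, 593 kept direction and side of the threshold, 72 lost it, 6 gained it and 30 turned sign. Creb1 was at 0.015, 0.016 and 0.016 with length-scaled counts (all transcripts, the number limit and the tighter limit) and at 0.022 in the authors' table, and Crtc1 at 0.048, 0.048, 0.049 and 0.049 in the same 4 settings. Mef2c was at -0.028 in the authors' table, and at -0.068 and -0.064 under the tighter limit. Rxra was at -0.0050 with the block, Rxrb at -0.021 with library size alone and -0.00045 without both libraries, and Rxrg at -0.026, -9.5e-05, -0.024 and -0.0032 with library size alone, protein-coding transcripts, the block and without both libraries. With 1 library left out the ranges were -0.023 to 0.020 for Crtc1, -0.027 to 0.014 for Mef2d, -0.0020 to 0.065 for Rxra, -0.0054 to 0.027 for Rxrb and -0.047 to 0.030 for Rxrg. Depth limits mainly the minor transcripts, several of which were listed at 0 in some libraries.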
